A study of Mus musculus with 45 samples.

Results

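Iron handling was read from 10 genes chosen by name, with earlier results of these data known. They cover uptake into the cell and out of the phagosome (*Tfrc*, *Slc11a1*, *Slc11a2*, *Lcn2*), storage (*Fth1*, *Ftl1*), export (*Slc40a1*), release from heme (*Hmox1*) and the proteins that sense iron and bind iron-responsive messages (*Aco1*, *Ireb2*). All 10 were found among the 29307 genes of the count table, and all 10 passed the filter on low counts that left 12905 genes for testing. The libraries came from bone marrow-derived macrophages of C57BL/6N mice aged 6 to 10 weeks, cultured for 6 days and then kept as M0 or stimulated over 24 h. M1 cells were given LPS at 20 ng/mL together with IFN-γ at 50 ng/mL, and M2 cells were given IL-4 at 20 ng/mL. Every mouse carried an engineered *Famin* (*Lacc1*) allele. These were p254I, the non-risk human form and the reference here, p254V, a form linked to risk of Crohn's disease and leprosy, and p284R, the form found in families with monogenic inflammatory disease. A wild-type group was not analysed here. Each of the 9 combinations of genotype and polarization had 5 libraries, 45 in all. The number in the sample labels, 1 to 5 within a genotype, was read as a mouse, so that 15 mice each gave an M0, an M1 and an M2 culture.

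A macrophage takes in iron bound to transferrin through the transferrin receptor (*Tfrc*) and, above all in spleen, liver and marrow, by digesting red cells, whose heme is opened by heme oxygenase 1 (*Hmox1*). Divalent metal transporters then move the iron out of endosomes (DMT1, *Slc11a2*) and phagosomes (NRAMP1, *Slc11a1*), ferritin made of heavy (*Fth1*) and light (*Ftl1*) chains stores it, and ferroportin (*Slc40a1*), the only known exporter of iron from mammalian cells, returns it to plasma. When iron is scarce, the regulatory proteins IRP1 (*Aco1*, which is a cytosolic aconitase when iron is plentiful) and IRP2 (*Ireb2*) bind hairpins in messages. At the 5′ end of a message the binding blocks translation, and at the 3′ end it protects the message from decay.

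These hairpins divide the genes between control of the message's level and control of its translation, so those found by script are shown before the values. Transcripts of the GENCODE M21 annotation (GRCm38, the mm10 assembly) were searched on their own strand for a C, a stem of 5 bases, the 6-base loop CAGTGN whose last base was not G, and 5 bases pairing with the stem, G-T pairs allowed. Such a hairpin lay in transcripts of 4 of the 10 iron genes, beside 222 of 21901 genes with a protein-coding transcript (1.01%). *Slc40a1*, *Fth1* and *Ftl1* had 1 each in the 5′UTR, and *Tfrc* had 4 in the 3′UTR. No match in the other 6 says only that these letters were not there. Each line runs 5′ to 3′ along the message, with the loop in capitals. The places are chr1:45925465-45925493 on the minus strand for *Slc40a1*, chr19:9982732-9982760 on the plus strand for *Fth1*, chr7:45459779-45459807 on the minus strand for *Ftl1*, and chr16:32631219-32631247, chr16:32631598-32631626, chr16:32631663-32631691 and chr16:32631710-32631738 on the plus strand for the 4 of *Tfrc* in the order given.
Slc40a1, 5′UTR: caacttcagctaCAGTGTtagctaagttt
Fth1, 5′UTR: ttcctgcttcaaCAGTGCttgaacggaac
Ftl1, 5′UTR: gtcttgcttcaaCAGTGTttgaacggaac
Tfrc, first in the 3′UTR: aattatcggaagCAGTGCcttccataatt
Tfrc, second in the 3′UTR: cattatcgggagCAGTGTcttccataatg
Tfrc, next in the 3′UTR: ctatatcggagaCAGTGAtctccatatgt
Tfrc, last in the 3′UTR: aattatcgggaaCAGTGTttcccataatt

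RNA sequencing measures the level of a message and neither its translation nor the iron in the cell. Total counts per library ranged from 17239009 to 43740283 (median 27553642), so that a level of 1 CPM (counts scaled to a common library total, with library sizes adjusted by TMM) stood for 16.4 to 48.2 reads. Summed macrophage markers (7 of 7 listed, among them *Adgre1*, *Csf1r* and *Lyz2*) ran from 19550 to 33190 CPM in M0, 11220 to 15060 CPM in M1 and 9583 to 13830 CPM in M2. *Lyz2* was much of these sums, at 17020 ± 4334 CPM in M0, 5980 ± 1111 CPM in M1 and 5318 ± 864 CPM in M2 (SD, n = 15). Of the 7 markers 1 rose (*Fcgr1*) and 5 fell in M1, and 1 rose (*Itgam*) and 6 fell in M2. Of all genes tested 37% rose and 40.3% fell in M1, and 36.8% rose and 39.6% fell in M2. The part of these markers in the changes with polarization was not tested. Summed erythroid markers were at most 3.80 CPM, and the hemoglobin genes were at or near 0. Summed neutrophil markers ran from 47.8 to 394 CPM, and they return below beside *Lcn2*. Gene positions in brackets below are GENCODE M21 on GRCm38. In the M1 libraries 2 dendritic cell markers, *Clec9a* (304 ± 66.7 CPM, SD, n = 15) and *Xcr1* (8.31 ± 1.60 CPM), were far above M0 (0.451 ± 0.181 and 0.0240 ± 0.0254 CPM), whereas *Flt3* was 0.151 ± 0.103 CPM and *Zbtb46* 0.316 ± 0.129 CPM, and the part of such cells in the M1 values was not tested. The M1 library of p254I mouse 5 stood apart, with *Arg1* at 40.8 CPM against at most 0.912 CPM in the other M1 libraries. Without it 8 of the 10 iron genes were still called in M1 against M0 and 10 in M1 against M2. With every library kept, 77.3% and 79.1% of all genes tested were called there, so these counts say little about that library. The *Famin* alleles differ in the coding sequence, which gene counts do not read, so the counts could not check the genotype labels directly. *Lacc1* levels set some p284R mice below the other genotypes and not others, as given further down. What this says of the labels was not tested.

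Storage genes were by far the most abundant of the iron genes. Levels are compared between genes as CPM per kb of the principal transcript of each gene. In M0 macrophages *Fth1* stood at 12600 ± 1470 (SD, n = 15) and *Ftl1* at 2910 ± 183, followed by *Hmox1* at 630 ± 204. *Slc40a1* (247 ± 79.8) and *Slc11a1* (208 ± 16.1) came next, and their mean ± SD intervals overlapped. The order went on with *Tfrc* at 55.1 ± 15, *Slc11a2* at 29.5 ± 2.48, *Aco1* at 25.3 ± 2.40, *Ireb2* at 16.1 ± 1.00 and *Lcn2* at 11.1 ± 7.79 CPM per kb, where *Slc11a2* overlapped *Aco1* and *Ireb2* overlapped *Lcn2*. In M1 macrophages *Slc11a1* came next after ferritin at 394 ± 59.9 CPM per kb. Near the foot of that order *Ireb2* (15.9 ± 0.806), *Slc40a1* (14.9 ± 2.62), *Tfrc* (11.4 ± 3.40) and *Lcn2* (6.58 ± 2.05) each overlapped the next, as did *Slc11a2* and *Aco1* above them. In M2 macrophages *Tfrc* came next after ferritin and *Hmox1* at 244 ± 62.3. Further down *Aco1* (41.6 ± 3.83), *Slc11a2* (33.6 ± 4.6), *Slc40a1* (24.3 ± 5.26) and *Ireb2* (18.3 ± 0.914 CPM per kb) each overlapped the next. *Fth1* led and *Lcn2* came last in all 3 states. Parts of the order between them depend on the length used. Per kb of the union of all exons of a gene, *Slc11a1* (130) lay above *Slc40a1* (92.3) in M0. By that length *Aco1* (21.6) also lay above *Slc11a2* (14.1) in M0, and *Fth1* (3360) lay nearer to *Ftl1* (2100). *Slc40a1* then lay below *Tfrc* in M1 and below *Ireb2* in M2. Processed copies of the ferritin genes had no row in the count table, and reads from them may have been counted with *Fth1* or *Ftl1*, so ferritin levels are uncertain to that extent.

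**Figure D1:**
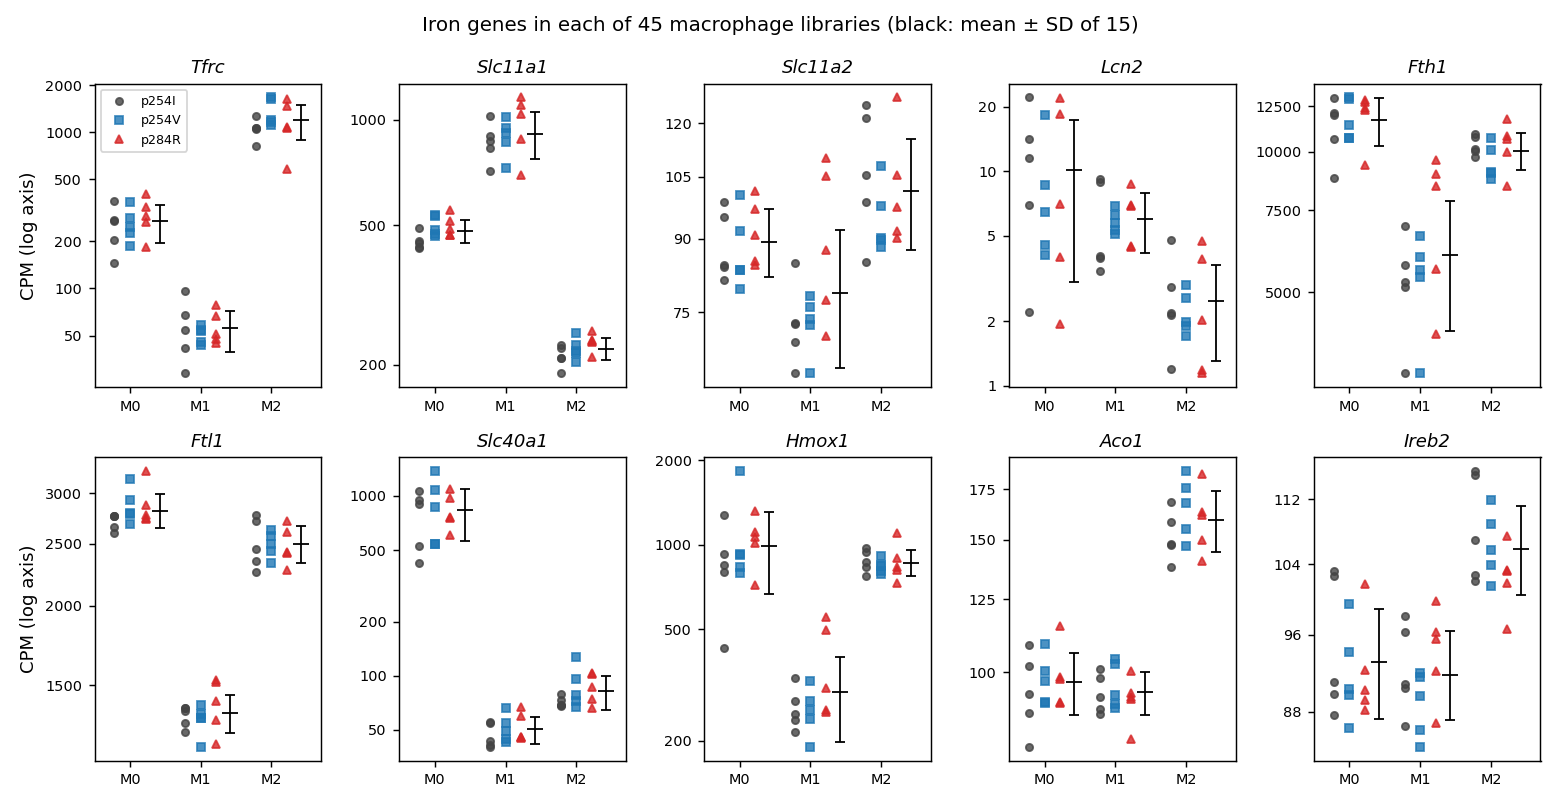
CPM (log axis) of the 10 iron genes in M0, M1 and M2 macrophages, with 1 point per library, coloured by genotype, and the mean ± SD of the 15 libraries of a state in black. *Slc40a1* of every M0 library (lowest 425 CPM) lies above every M1 and M2 library (highest 126 CPM), and *Tfrc* runs from M1 (highest 96.9 CPM) over M0 to M2 (lowest 583 CPM) without overlap.

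Most of these genes were called with polarization, as were most of all genes tested, and the M1 and M2 states moved them in different ways. Against M0, 1 of the 10 genes rose and 7 fell in M1 macrophages at an adjusted p under 0.05 (edgeR's quasi-likelihood test, Benjamini-Hochberg over 12905 genes). Of all genes tested 77.3% were called in that comparison, 37% higher and 40.3% lower, so the 8 calls are near the background. In M2 macrophages 4 rose and 5 fell, beside 76.4% called of all genes (36.8% higher, 39.6% lower). Between M1 and M2 all 10 were called, 2 higher and 8 lower in M1, beside 79.1% (39% higher, 40.1% lower). By size, 4 of the 10 were called and past 2-fold in each of the 3 comparisons, beside 21.6% of all genes for M1 against M0, 16.5% for M2 against M0 and 24.6% for M1 against M2. The median log2 change of the 10 genes was -0.86 for M1 against M0, where that of all genes was -0.03, and -0.18 for M2 against M0, where that of all genes was again -0.03. The libraries of the states did not overlap at all for 4 of the 10 genes in M1 against M0, 4 in M2 against M0 and 5 in M1 against M2, where 28.6%, 23.4% and 35.7% of all genes were so separated. In bulk samples fewer cells of a type and less RNA per cell cannot be told apart.

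**Figure D2:**
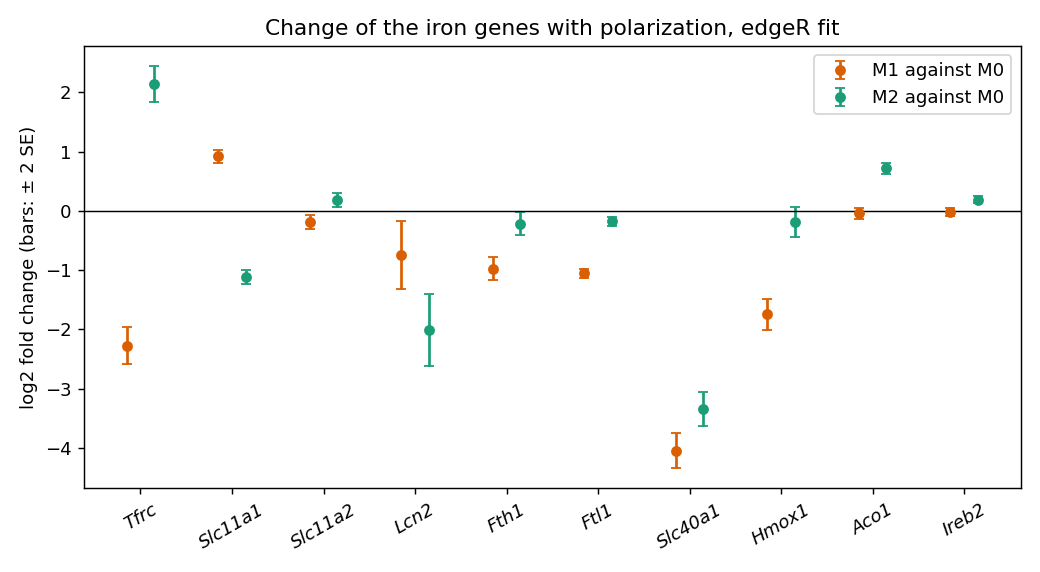
Log2 fold change of each iron gene in M1 and in M2 macrophages against M0, from the edgeR fit, with bars of 2 standard errors on each side. *Tfrc* and *Slc11a1* lie on opposite sides of 0 in the 2 states, and *Slc40a1* lies at -4.05 and -3.35.

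The transferrin receptor *Tfrc* [ENSMUSG00000022797, chr16:32608920-32632794, plus strand] gave the widest span. Its lowest, median and highest values were 146, 272 and 404 CPM in M0, 28.7, 53.6 and 96.9 CPM in M1, and 583, 1115 and 1668 CPM in M2. The 3 states did not overlap in any pair. It fell by 2.28 ± 0.154 on the log2 scale (SE) in M1 (4.85-fold, adjusted p = 9.9e-17, edgeR) and rose by 2.14 ± 0.152 in M2 (4.4-fold, adjusted p = 8.57e-16). M1 lay 21.4-fold below M2, and the direction held in 15 of 15 mice for each comparison. The highest M1 value came from the p254I library with raised *Arg1*, and without that library the M1 change was -2.36. Message levels of *Tfrc* are those for which the 4 hairpins printed above are known to matter, through decay of the message.

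*Slc11a1* [ENSMUSG00000026177, chr1:74375195-74386062, plus strand] (NRAMP1), which pumps divalent metals out of the phagosome and is known for resistance to intracellular bacteria, took the opposite course. Its values were 430, 471 and 551 CPM (lowest, median, highest) in M0, 695, 901 and 1157 CPM in M1, and 189, 223 and 249 CPM in M2. No library of any state reached into another state's range. The gene rose by 0.92 ± 0.0554 in M1 (1.90-fold, adjusted p = 1.53e-18) and fell by 1.12 ± 0.0557 in M2 (2.17-fold, adjusted p = 8.38e-21), both in 15 of 15 mice. It was the only iron gene that rose in M1 by the edgeR test.

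Its relative *Slc11a2* [ENSMUSG00000023030, chr15:100387898-100425072, minus strand] (DMT1), which carries iron out of endosomes after transferrin uptake, changed little. The medians were 85.3 CPM in M0, 73.7 CPM in M1 and 97.7 CPM in M2, and the ranges of the states overlapped (79.5 to 101, 64.5 to 110 and 85.1 to 128 CPM). It fell by 0.19 ± 0.061 in M1 (adjusted p = 0.00487) and rose by 0.18 ± 0.0608 in M2 (adjusted p = 0.00689). The fall was seen in 12 of 15 mice and the rise in 13 of 15. Without the mice numbered 2 of all genotypes the M1 change was -0.11 with an adjusted p of 0.109.

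*Slc40a1* [ENSMUSG00000025993, chr1:45908068-45926523, minus strand], the exporter, fell more than any other iron gene in both states. It ranged from 425 to 1374 CPM in M0 (median 874), from 40.02 to 67.1 CPM in M1 (median 45.5) and from 65.9 to 126 CPM in M2 (median 73.7). Every M0 library lay above every polarized one. The fall was 4.05 ± 0.146 on the log2 scale in M1 (16.5-fold, adjusted p = 1.08e-25) and 3.35 ± 0.141 in M2 (10.2-fold, adjusted p = 7.06e-23), in 15 of 15 mice each. M1 lay below M2 by 0.70 ± 0.131 (adjusted p = 7.6e-06), with overlapping ranges but the same direction in 15 of 15 mice. The M0 level also varied with the number of the mouse. In p254I it was 1070, 945, 901, 425 and 524 CPM for mice 1 to 5, in p254V 1084, 1374, 874, 540 and 542 CPM, and in p284R 1090, 971, 604, 753 and 767 CPM. Mice 4 and 5 were the lowest in p254I and p254V, whereas mouse 3 was the lowest in p284R.

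Ferritin fell mainly in M1. *Ftl1* [ENSMUSG00000050708, chr7:45457944-45459884, minus strand], the light chain, ranged from 2605 to 3251 CPM in M0 (median 2767), from 1201 to 1532 CPM in M1 (median 1353) and from 2257 to 2774 CPM in M2 (median 2456). M1 did not overlap either other state. It fell by 1.06 ± 0.038 in M1 (2.08-fold, adjusted p = 4.29e-26) and by 0.17 ± 0.0376 in M2 (adjusted p = 7e-05). *Fth1* [ENSMUSG00000024661, chr19:9980598-9985098, plus strand], the heavy chain with the ferroxidase site, had 8797, 12110 and 13060 CPM (lowest, median, highest) in M0, 3355, 5622 and 9586 CPM in M1, and 8429, 10100 and 11720 CPM in M2. Its M1 range was wide and reached into those of M0 and M2, although each mouse was lower in M1 than in its own M0 culture (15 of 15). The fall in M1 was 0.98 ± 0.0982 (1.97-fold, adjusted p = 9.02e-12). The M2 change of -0.22 ± 0.0973 passed narrowly (adjusted p = 0.0417), was seen in 13 of 15 mice, and lost its call in 14 of 29 alternative settings, among them limma-voom without a block (adjusted p = 0.0625) and the fit without mice numbered 1 (-0.15, adjusted p = 0.245).

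*Hmox1* [ENSMUSG00000005413, chr8:75093621-75100589, plus strand], the inducible enzyme that frees iron from heme, fell in M1. The lowest, median and highest values were 429, 924 and 1831 CPM in M0, 190, 258 and 551 CPM in M1, and 733, 838 and 1103 CPM in M2. M1 and M2 did not overlap, and M1 and M0 did. The fall in M1 was 1.75 ± 0.131 (3.35-fold, adjusted p = 2.38e-15), in 15 of 15 mice. Against M0 the M2 difference was -0.19 with an interval of 2 SE from -0.44 to 0.07 (adjusted p = 0.179), and 11 of 15 mice were lower in M2. The coefficient of variation was 32.4% in M0, 33.5% in M1 and 10.7% in M2.

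Messages of both regulatory proteins rose in M2 and were not called in M1. *Aco1* [ENSMUSG00000028405, chr4:40143081-40198338, plus strand] (IRP1) ranged from 79.5 to 115 CPM in M0, from 81.5 to 104 CPM in M1 and from 138 to 185 CPM in M2, where every library lay above all M0 and M1 libraries. It rose in M2 by 0.72 ± 0.0457 (1.64-fold, adjusted p = 2.07e-17, 15 of 15 mice). In M1 the difference was -0.05 with an interval from -0.14 to 0.05 (adjusted p = 0.366). *Ireb2* [ENSMUSG00000032293, chr9:54863789-54912530, plus strand] (IRP2) had medians of 90.3, 91.6 and 104 CPM in M0, M1 and M2 with overlapping ranges. It rose in M2 by 0.18 ± 0.0297 (1.14-fold, adjusted p = 5.74e-07), in 15 of 15 mice, and differed by -0.02 in M1 (interval -0.08 to 0.04, adjusted p = 0.539).

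*Lcn2* [ENSMUSG00000026822, chr2:32384633-32388252, minus strand], lipocalin 2, binds bacterial siderophores that carry iron and is an abundant granule protein of neutrophils. It was scarce here, at 1.93, 7.02 and 22.1 CPM (lowest, median, highest) in M0, 3.44, 5.76 and 9.18 CPM in M1, and 1.14, 2.13 and 4.79 CPM in M2. It fell in M2 by 2.02 ± 0.305 (4.05-fold, adjusted p = 1.95e-07, 15 of 15 mice). In M1 the fall of 0.74 ± 0.286 passed in the edgeR fit (adjusted p = 0.0183) but was seen in only 10 of 15 mice. The call was lost in 6 of 30 other settings. In limma-voom without a block the fall missed the threshold (adjusted p = 0.197), and with a random effect of the mouse it was -0.43 (adjusted p = 0.114). Without p254V mouse 2 it was -0.58 (adjusted p = 0.0686), without p284R mouse 1 -0.64 (adjusted p = 0.0504), without mice numbered 1 -0.56 (adjusted p = 0.146) and without mice numbered 2 -0.42 (adjusted p = 0.189).

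The 2 genes most like *Lcn2* over the 45 libraries, by Pearson's r of log2(CPM + 1), were *Ltf* (0.949) and *Ngp* (0.947), both granule genes of neutrophils and both on the marker list. Across the 15 M0 libraries *Lcn2* followed the summed neutrophil markers with r = 0.97 and Spearman's rho = 0.975 (permutation p = 1e-05 for each, the smallest that 100000 permutations can give, adjusted p = 3e-05 over the 3 states). The relation held without the 2 libraries farthest from the median of the markers (r = 0.961) and within mouse numbers (r = 0.868 after centring on the number). In M1 r was 0.869 and rho 0.879 (permutation p = 3e-05 and 6e-05, adjusted 4.5e-05 and 9e-05), 0.805 without the 2 farthest libraries and 0.838 within mouse numbers. In M2 it did not pass (r = 0.447, p = 0.094, rho = 0.479, p = 0.074, by permutation), and within mouse numbers r was -0.10. The permutations in each state shuffled the 15 libraries without regard to mouse number. Libraries of the same number varied together, so these p-values may be too small, and r within mouse numbers was given no p. The summed markers themselves ran from 55.5 to 394 CPM in M0, from 47.8 to 156 CPM in M1 and from 66.6 to 242 CPM in M2. Of the 8 neutrophil markers tested, 5 fell and none rose in M1, and 5 fell and 1 rose in M2, beside 77.3% of all genes called in M1 (40.3% lower) and 76.4% in M2 (39.6% lower). That 1, *Mmp8*, went from 38.7 ± 14.1 CPM in M0 to 92.8 ± 39.7 CPM in M2 and made up much of the M2 sum, and *Ly6g*, the surface marker of neutrophils, was at 0.114 ± 0.136 CPM in M0. *Lcn2* equalled 3.07% to 8.98% of the summed markers in M0, 5.75% to 10.6% in M1 and 1.17% to 7.20% in M2. *Mmp8* is in these sums, and neither the shares nor r were computed without it, so the M2 values depend on *Mmp8* to an unknown extent. The part of neutrophils in the *Lcn2* values was not tested.

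**Figure D3:**
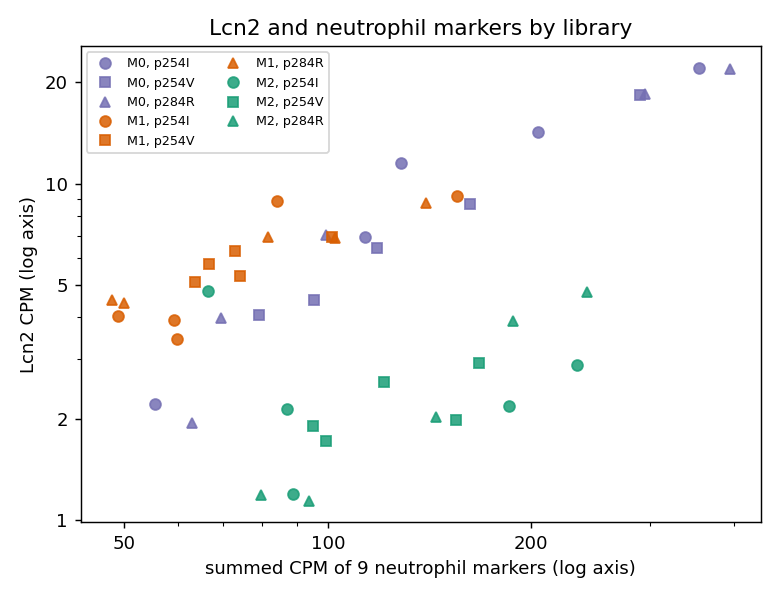
*Lcn2* level against the summed level of 9 neutrophil markers in each of the 45 libraries (CPM, both axes log), coloured by polarization and shaped by genotype. M0 libraries line up from 1.93 to 22.1 CPM of *Lcn2*, and M2 libraries lie lower at like marker sums. The sums hold *Mmp8*, which was 38.7 ± 14.1 CPM in M0 and 92.8 ± 39.7 CPM in M2 (SD, n = 15).

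Other genes of iron and heme handling were read from 7 lists with 63 genes, of which 60 were in the table and 55 were tested. In M1 macrophages 20 rose, 26 fell and 9 were not called, and in M2 20 rose, 23 fell and 12 were not called, beside 37% higher and 40.3% lower of all genes in M1 and 36.8% and 39.6% in M2. The called share was near that of all genes (77.3% and 76.4%), and so were the medians (median log2 change -0.04 in M1 and -0.05 in M2, beside -0.03 over all genes in each). Of the 13 uptake genes tested 10 fell and 1 rose in M1, and 9 fell and 3 rose in M2, and whether this differs from the shares of all genes was not tested. *Cd163*, the scavenger receptor for hemoglobin bound to haptoglobin, went from 5.89 ± 2.53 CPM in M0 to 0.156 ± 0.108 CPM in M1 (log2 change -5.31, adjusted p = 1.38e-20) and 2.97 ± 0.961 CPM in M2 (-1.01, adjusted p = 9.32e-06). *Slc39a8*, a zinc transporter that also carries iron, fell by 2.28 in M1 and by 1.25 in M2 (adjusted p = 4.52e-24 and 4.68e-16). *Hp*, haptoglobin itself, fell by 1.20 in M2 (adjusted p = 7.42e-07).

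Among genes of storage and delivery, *Ncoa4*, the receptor that hands ferritin to the lysosome, fell from 32.2 ± 6.56 CPM to 7.93 ± 1.29 CPM in M1 and 14.7 ± 2.16 CPM in M2 (log2 change -2.02 and -1.13, adjusted p = 8e-22 and 4.45e-14). *Pcbp4*, related to the iron chaperones, fell by 1.09 in M1 (adjusted p = 2.53e-14). *Pcbp2*, on the same list, rose by 0.30 in M1 and 0.53 in M2 (adjusted p = 1.5e-13 and 7.05e-21). Of the 4 storage and delivery genes tested 1 rose and 3 fell in each state. Of all genes 37% rose and 40.3% fell in M1, and 36.8% rose and 39.6% fell in M2. Of the 4 export genes tested none rose, 3 fell in M1 and 2 fell in M2, where 40.3% and 39.6% of all genes fell. *Flvcr1*, a heme exporter, fell by 1.34 in M1 (adjusted p = 2.78e-25), and *Cp*, the plasma ferroxidase ceruloplasmin that works beside ferroportin, fell by 1.86 in M2 (adjusted p = 9.42e-09) and differed by -0.10 in M1 (adjusted p = 0.699). *Alas1*, the first and rate-limiting enzyme of heme synthesis, moved with *Tfrc* in direction. It stood at 167 ± 34.6 CPM in M0, 81.1 ± 12.3 CPM in M1 and 408 ± 84.7 CPM in M2 (log2 change -1.04 and 1.29, adjusted p = 1.73e-12 and 5.06e-15). Over the 8 heme synthesis genes tested, 2 rose and 4 fell in M1, and 3 rose and 2 fell in M2. Of all genes 37% rose and 40.3% fell in M1, and 36.8% rose and 39.6% fell in M2.

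Of the 15 mitochondrial iron genes 11 rose and 2 fell in M1, and 9 rose and 3 fell in M2. Of all genes 37% rose and 40.3% fell in M1 and 36.8% rose and 39.6% fell in M2, and the difference between these shares was not tested. *Slc25a37*, mitoferrin 1, which brings iron into mitochondria, rose in M1 and fell in M2, as *Slc11a1* did. It went from 71.3 ± 10.3 CPM in M0 to 162 ± 31.5 CPM in M1 and 28.9 ± 5.43 CPM in M2 (log2 change 1.19 and -1.30, adjusted p = 6.11e-15 and 1.13e-15). *Cisd2*, an iron-sulfur protein, rose by 1.09 in M1 (adjusted p = 5.21e-23). Among the 8 other regulators 3 rose and 3 fell in M1, and 2 rose and 3 fell in M2. *Hif1a* rose by 1.59 in M1 (adjusted p = 3.29e-23), whereas *Epas1* (HIF-2α), whose message is also known to carry an iron-responsive hairpin, fell from 5.12 ± 2.03 to 0.472 ± 0.264 CPM (log2 change -3.43, adjusted p = 1.55e-17). *Bdh2*, linked to the mammalian siderophore, fell by 1.63 in M2 (adjusted p = 2.37e-09). Of the 3 heme breakdown genes besides *Hmox1*, 2 rose and 1 fell in each state. *Blvrb*, a biliverdin reductase, rose in both (0.28 and 0.18), *Hmox2*, the constitutive heme oxygenase, rose in M1 and fell in M2 (0.17 and -0.65), and *Blvra*, the main biliverdin reductase, fell in M1 and rose in M2 (-0.79 and 0.21).

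The genotype comparisons asked whether the *Famin* alleles alter these levels. By the test used for each, none of the 10 iron genes was called for p284R or p254V against p254I in M0, M1 or M2 (edgeR) or averaged over the states (limma-voom, mouse as random effect). The background was as sparse. Of the 12905 genes, 0% were called for p284R in M0, 0.263% in M1, 0.00775% in M2 and 0.00775% for the average, and 0% in each of the 4 comparisons of p254V. DESeq2 and limma-voom without a block called 0 of the 10 as well in each comparison. At an unadjusted p under 0.05, 3 of the 10 passed for p284R in M1, where 6.70% of all genes did, and 1 of the 10 for the p284R average, where 1.70% did (2 of the 10 in DESeq2 and in limma-voom without a block). No iron gene passed at that level in the other 6 comparisons, where 1.08% of all genes did for p284R in M0, 1.15% in M2, and for p254V 1.79% in M0, 0.93% in M1, 2.55% in M2 and 0.589% for the average. The interaction of genotype and polarization called 0 of the 10 and 0% of all genes in edgeR (1.09% without adjustment), and 0 of the 10 had an unadjusted p under 0.05 there, in DESeq2's likelihood-ratio test and in limma-voom as well as in edgeR. Of the 55 genes of the pathway lists none was called in any of the 8 genotype comparisons, and 4 passed without adjustment for p284R in M1 and 2 for its average. Polarization held 42.3% (*Slc11a2*) and 47% (*Lcn2*) of the variance of log2 CPM in 2 of the genes and 60.3% (*Ireb2*) to 96.8% (*Slc11a1*) in the other 8, whereas genotype held 0.112% (*Tfrc*) to 7.29% (*Slc11a2*).

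The 3 genes that passed without adjustment for p284R in M1 were *Fth1*, *Slc11a2* and *Hmox1*, and the excess came from some mice more than others. *Fth1* had 5622, 4063, 8433, 9586 and 8959 CPM in M1 macrophages of p284R mice 1 to 5. In p254I it had 5142, 3355, 5709, 5260 and 6929 CPM, and in p254V 5592, 3368, 5394, 5959 and 6608 CPM. Mice 3, 4 and 5 of p284R lay above all 10 libraries of the other genotypes, and mouse 2 was the lowest within each genotype. The log2 difference from p254I was 0.47 ± 0.169 (adjusted p = 0.427). Leaving out a mouse or a mouse number moved it between 0.35 (without p254I mouse 2, adjusted p = 0.88) and 0.63 (without p284R mouse 2, adjusted p = 0.0435, the only one of these fits that called it). It was 0.35 without p284R mouse 4 and 0.39 without p284R mouse 5 (adjusted p = 1 for each), and 0.59 without p254I mouse 5, whose M1 library had raised *Arg1* (adjusted p = 0.272).

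*Hmox1* had 258, 253, 309, 551 and 495 CPM in the same p284R libraries. The p254I libraries had 249, 214, 276, 237 and 336 CPM and the p254V libraries 257, 190, 240, 278 and 325 CPM. Mice 4 and 5 of p284R stood above all others. The difference from p254I was 0.51 ± 0.221 (adjusted p = 0.646). It ran from 0.29 (without mice numbered 4, adjusted p = 1) to 0.62 (without p284R mouse 2, adjusted p = 0.227) when mice were left out, and was 0.32 without p284R mouse 4 and 0.61 without p254I mouse 5. *Slc11a2* had 70.7, 77.3, 87.5, 110 and 105 CPM in p284R. It had 64.6, 69.7, 73.0, 84.9 and 72.8 CPM in p254I and 64.5, 72.6, 73.7, 76.0 and 78.2 CPM in p254V. Mice 3, 4 and 5 of p284R lay above every library of the other 2 genotypes, and the difference from p254I was 0.30 ± 0.106 (adjusted p = 0.396). It ran from 0.22 (without p284R mouse 4, adjusted p = 1) to 0.38 (without p284R mouse 1, adjusted p = 0.0975), and was 0.30 without p254I mouse 5. With 2-sided exact permutation tests on 5 mice against 5 the 3 genes gave p = 0.183, 0.151 and 0.0794 for *Fth1*, *Hmox1* and *Slc11a2*.

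**Figure D4:**
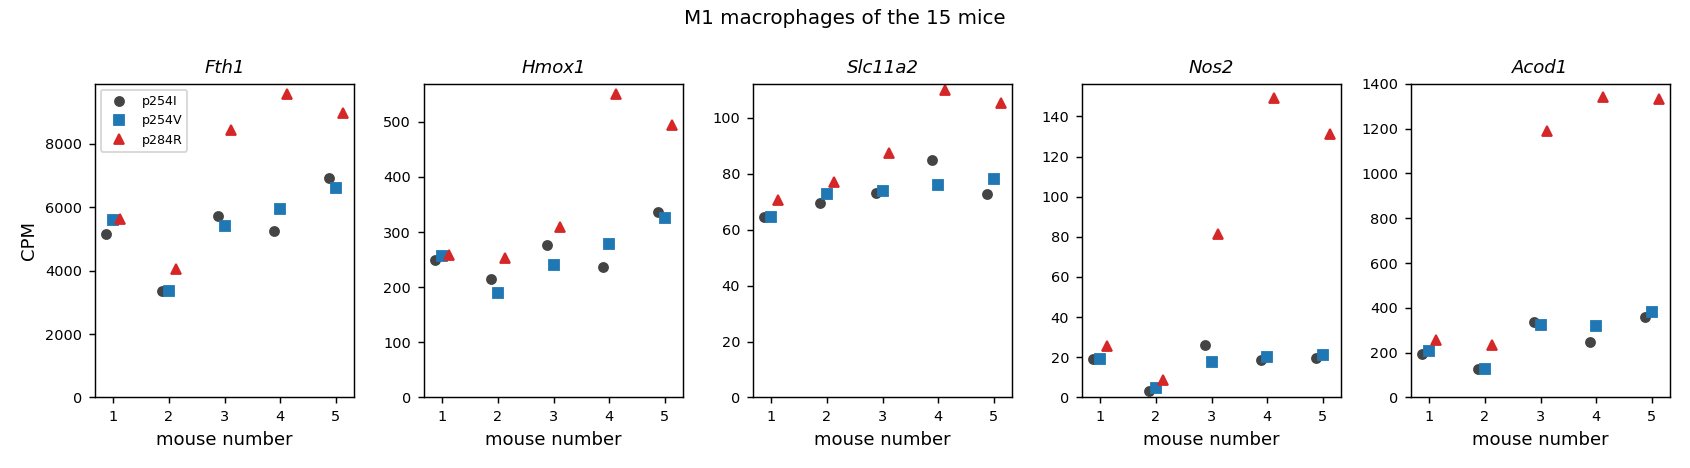
M1 libraries of the 15 mice by mouse number (CPM, linear axes from 0), coloured by genotype, for *Fth1*, *Hmox1*, *Slc11a2* and the M1 genes *Nos2* and *Acod1*. Within each number the p284R point is the highest for *Fth1*, *Hmox1* and *Slc11a2*, and mice 3, 4 and 5 of p284R are set apart for *Nos2* (81.5, 149 and 131 CPM).

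Libraries with the same mouse number deviated together in M1 (correlation of deviations from 0.245 to 0.779 over the 5 pairs of p284R and p254I), and with the number as a block the calls changed. In this paired edgeR fit *Fth1* was higher in p284R by 0.45 ± 0.0911 (adjusted p = 0.00525) and *Slc11a2* by 0.29 ± 0.072 (adjusted p = 0.0224), so that 2 of the 10 iron genes were called beside 2.66% of all genes (343, where the fit without the block called 34). *Hmox1* differed by 0.45 ± 0.150 (adjusted p = 0.108). All 3 were higher in p284R in 5 of 5 pairs of the same number, by 0.129 to 0.866 for *Fth1*, 0.13 to 0.525 for *Slc11a2* and 0.0538 to 1.22 for *Hmox1* on the log2(CPM + 1) scale. Leaving out a number at a time from the paired fit, *Fth1* lost its call without mice numbered 4 (0.34, adjusted p = 0.0571) and without mice numbered 5 (0.46, adjusted p = 0.0594), and *Slc11a2* without mice numbered 5 (0.23, adjusted p = 0.241). No other comparison of p284R or p254V within a state called an iron gene in the paired fit.

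Genes of M1 activation were set apart in p284R mice 3 to 5 as well. *Nos2*, the inducible nitric oxide synthase of M1 cells, was at 81.5, 149 and 131 CPM in mice 3, 4 and 5 of p284R and between 3.01 and 26.0 CPM in the other 12 M1 libraries. *Acod1*, which makes itaconate and was added after its values were seen, was at 1190, 1340 and 1330 CPM in those mice and between 125 and 383 CPM in the rest. Not all M1 genes varied so widely. Over the 15 M1 libraries *Irf1* was 1382 ± 61.3 CPM and *Gbp2* 8726 ± 535 CPM (SD). The 6 listed M1 markers summed to 16630, 16760 and 17190 CPM in those mice and 11520 to 13840 CPM in the rest. *Lacc1*, the gene that carries the alleles, followed another order, at 396, 263 and 218 CPM in M1 libraries of p284R mice 1 to 3, 584 and 553 CPM in mice 4 and 5, and between 486 and 597 CPM in the other genotypes. The split of *Lacc1* was not particular to M1. In M0 p284R mice 1 to 5 had 119, 108, 91.2, 169 and 160 CPM, and the other genotypes 157 to 257 CPM. In M2 they had 122, 56.8, 66.6, 200 and 175 CPM, and the other genotypes 159 to 183 CPM. The part of these differences in the *Fth1*, *Hmox1* and *Slc11a2* values was not tested. In M0 and M2 the paired differences between p284R and p254I were 0.08 and -0.0023 for *Fth1*, 0.05 and -0.07 for *Slc11a2*, and 0.34 and -0.01 for *Hmox1*, each with an adjusted p of 1.

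*Slc11a1* was the gene that passed without adjustment for the p284R average. Its difference from p254I over the 3 states was 0.14 ± 0.0655 (p = 0.0349 from limma-voom, adjusted p = 1), and the 2-sided exact permutation test of 5 against 5 mouse means gave p = 0.0556. In M0 p284R mice had 467, 486, 467, 551 and 515 CPM, p254V mice 471, 530, 534, 465 and 484 CPM, and p254I mice 444, 449, 492, 433 and 430 CPM. The p254I values were the lowest apart from mouse 3, whose value lay among those of the others. In M2 the values were 210, 249, 235, 231 and 234 CPM in p284R and 189, 208, 209, 223 and 227 CPM in p254I, and p284R was the higher in 5 of 5 pairs of the same number. It was the higher in 4 of 5 pairs in M0 and in 3 of 5 in M1, where the paired differences ran from -0.04 to 0.48. No *Slc11a1* difference between genotypes passed adjustment over all genes, with or without the mouse number as a block.

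**Figure D5:**
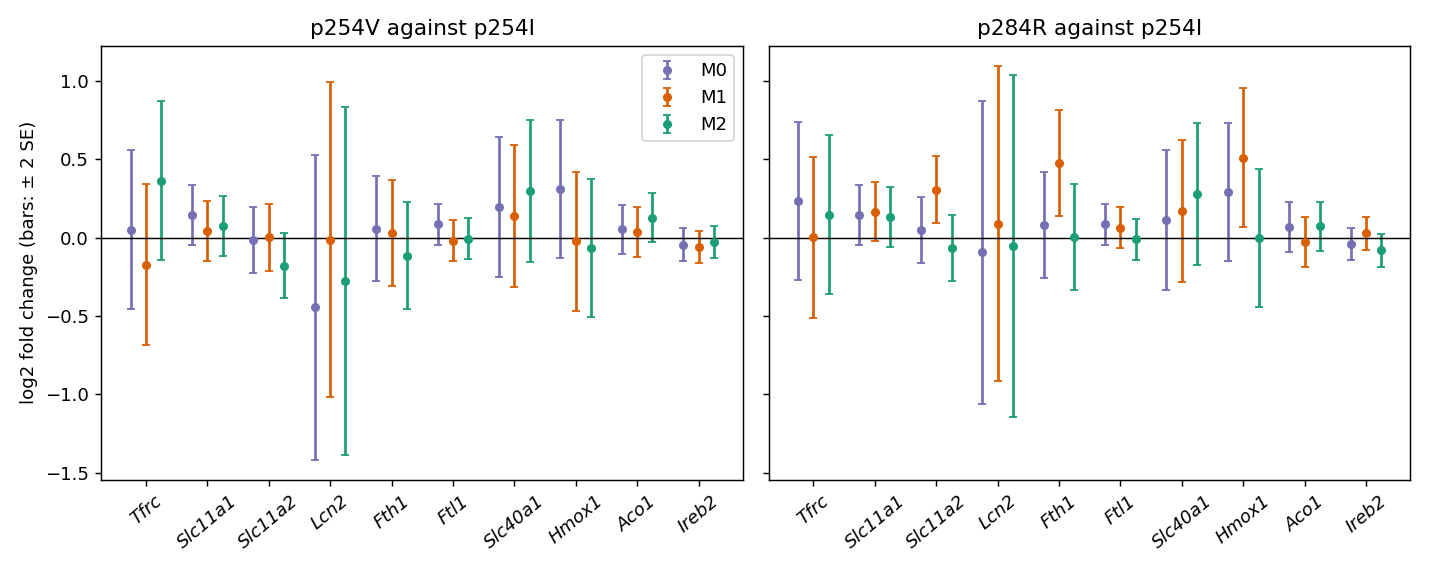
Log2 fold change of each iron gene for p254V (left) and p284R (right) against p254I in M0, M1 and M2 macrophages, from the edgeR fit without a block, with bars of 2 standard errors on each side. Most bars span 0, those of *Fth1*, *Slc11a2* and *Hmox1* in M1 of p284R do not, and *Lcn2* has the widest bars.

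For p254V the differences averaged over the states ran from -0.17 (*Lcn2*) to 0.20 (*Slc40a1*), with a median of 0.04 over the 10 genes. The intervals show what these libraries can resolve. For *Ireb2* the interval of 2 SE ran from -0.12 to 0.03 and for *Ftl1* from -0.07 to 0.11, whereas for *Lcn2* it ran from -0.99 to 0.65 and for *Tfrc* from -0.22 to 0.49. A p that misses the threshold at such widths does not show equal levels.

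The iron genes varied with each other as well as with the state. After removal of the 9 group means, *Fth1* correlated across libraries with *Slc11a1* (r = 0.726), *Hmox1* (0.705) and *Ftl1* (0.482), and *Slc40a1* with *Aco1* (0.640), *Hmox1* (0.505) and *Tfrc* (0.482), as a description over 45 libraries that share mice and mouse numbers. Mouse number, fitted separately within each state, held 39.6% of the variance of *Lcn2*, 28.9% of *Slc11a2* and 19.3% of *Fth1*, and between 1.68% and 18.6% of the other genes. This fit gave the number more terms than genotype, so the shares of the 2 are not on a like footing. Over all 45 libraries the genes most like each iron gene were *Zdhhc14* and *Slc26a11* for *Slc40a1* (r = 0.983 and 0.980), *Clcn5* and *Mrtfb* for *Tfrc* (0.983 each), *Jag1* and *Hmox1* for *Fth1* (0.936 and 0.924), *Cdk20* and *Lhfpl2* for *Ftl1* (0.978 each), *Sbno2* and *Adap1* for *Slc11a1* (0.976 and 0.975), and *Ednrb* and *Slc22a4* for *Hmox1* (0.964 and 0.954). *Aco1* was most like *Dock2* and *Aldh1a2* (0.978 and 0.966), *Slc11a2* like *Cstb* and *Tmem178* (0.822 and 0.815), and *Ireb2* like *Ppp1cb* and *Slmap* (0.888 and 0.867). *Hmox1* was the only iron gene among these neighbours. These r values include the changes between M0, M1 and M2, and the neighbours were picked as the highest of all genes tested. They describe a like pattern over the states, and shared control was not tested.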

How the data were processed

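RNA from 45 macrophage cultures was made into stranded mRNA libraries and read as single 50-base reads. Per the labels and the study's methods, the authors trimmed reads with Trim Galore, aligned them to mm10 with HISAT2 and tested them with limma-voom. The series text names Cutadapt and STAR instead, and the counting tool, its annotation and its use of strand are not given in the sources used here. The authors deposited raw counts per gene for 29307 genes and CPM for 11900 genes. The deposited CPM values gave whole reads within 0.01 for 100% of values, equal to the deposited counts. *Slc11a2* overlaps another annotated gene on the opposite strand, and *Ftl1* overlaps 1 on each strand (Gm22133 on its own, Gm10252 opposite), neither of which has a row in the count table used here.

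Counts were scaled by TMM and filtered with filterByExpr, leaving 12905 genes. Polarization, genotype within a state and the interaction (all terms together) were tested with edgeR 4.0.16 (quasi-likelihood test, 9 groups) in R 4.3.3. Genotype averaged over states was tested with limma 3.58.1 (voom, mouse as random block, correlation 0.221). P-values were adjusted by Benjamini-Hochberg over all genes tested, with a threshold of 0.05. Exact permutation tests used 252 splits of log2(CPM + 1). The scripts were tested on simulated data. Positions, transcripts and hairpins came from GENCODE M21. Alternatives included DESeq2 1.42.0, other filters and scalings, blocks, leaving out each mouse, and several added after the data were seen.

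The genes and lists were chosen with earlier results of these data known. Named pathway genes were up to 2 per list and state with the smallest adjusted p and a change over 2-fold, apart from *Pcbp2* and the heme breakdown genes. Mice came from littermates of heterozygous parents, and p-values measure the spread between these cultures. A shared mouse number was taken as a pairing within M0 and within M1, where libraries of one number deviated together in 5 of 5 pairs (correlation 0.141 to 0.753 for p284R and p254I in M0, 0.245 to 0.779 in M1). In M2 it did so in 4 of 5 pairs of p284R and p254I (lowest -0.348). What the number stands for is not given in the sources used here.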

Additional observations from a re-analysis of the deposited data

Results flagged for a closer look

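In 3 of 90 sets of 5 libraries, 1 library lay apart from the other 4 by more than 0.71 of the whole range, and chance alone gives about 1 in 20. *Fth1* was 9356 CPM in the M0 library of p284R mouse 3, where the other 4 had 12260 to 12910 CPM (gap 0.817 of the range). *Ftl1* was 3251 CPM in the M0 library of p284R mouse 4, where the others had 2735 to 2879 CPM (0.721). *Hmox1* was 1831 CPM in the M0 library of p254V mouse 2, where the others had 796 to 924 CPM (0.876). The M0 libraries of mouse 2 were also the highest for *Hmox1* in p254I (1274 CPM) and p284R (1319 CPM).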

How the results depend on the processing

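The number of genes called for polarization stayed within 1.5 times of the value reported under every setting run, from 8277 to 11116 in M1 against M0, 8248 to 10705 in M2 against M0 and 8493 to 11401 in M1 against M2. With the mouse as a fixed block it was 10352, 10286 and 10530. Of 890 values of single iron genes for polarization under other settings, 864 kept their call and direction, 21 lost the call and 5 reversed. The reversals were all in 1 comparison (Ireb2: M1 against M0), which was never called, with a range of -0.0445 to 0.0199 when mice were left out (-0.0325 to 0.015 over single p284R mice, and 0.0199, 0.00194 and 0.00469 without numbers 1, 2 and 3). Of 90 group levels 1 moved by more than 1 SD with total counts in place of TMM (*Ftl1* in p254I M0, 2819 CPM).

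Counts of all genes called between genotypes were small and moved. For p284R in M1 (34 genes) DESeq2 called 64, limma-voom without a block 11, and a fit of the compared libraries only 1, and leaving out single mice gave 0 to 109 and a mouse number 0 to 63. It fell to 1, 1 and 0 without p284R mouse 3, 4 or 5. With the mouse number as a block it was 343, and with that block and 1 number left out (1 to 5 in turn) 474, 234, 312, 98 and 51. In M0 (0 genes) DESeq2 and the compared libraries each gave 1, and leaving out mice 0 to 1. In M2 (1 gene) these gave 2, 2 and 0 to 2. For the p284R average (1 gene) DESeq2 gave 11, limma-voom without a block 3, the compared libraries 2, edgeR without a block 2, the mouse number as a block 4, counts summed per mouse 0, and leaving out mice 0 to 4. For p254V (0 genes in each) DESeq2 gave 1, 3 and 2 in M0, M1 and M2 and 5 for the average, leaving out mice gave 0 to 1 in M0 and in M2, and for the average the mouse number as a block gave 1 and edgeR without a block 2. The interaction (0 genes) gave 2 by DESeq2's likelihood-ratio test, 1 with a random effect of the mouse, and 0 to 2 when mice were left out. The cause was not tested. The block changed no call of an iron gene between genotypes other than *Fth1* and *Slc11a2* in M1 of p284R. A DESeq2 Wald test of the interaction was not run, and the fit of only the compared libraries was not run for the interaction, which uses every group. At the depth of these libraries *Lcn2* is the iron gene with the fewest reads, and its intervals are the widest.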
